A study of Homo sapiens with 16 samples.

Results

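The genes described here encode the subunits of the hypoxia-inducible factors (HIFs) and the enzymes that mark them for turnover when oxygen is present. The 10 genes were chosen by name, with earlier results of these data known. Of these, 9 are among the 14108 genes with values in either experiment. The 5 subunit genes are *HIF1A*, *EPAS1*, *HIF3A*, *ARNT* and *ARNT2*, and the other 5 genes are *EGLN1*, *EGLN2*, *EGLN3*, *HIF1AN* and *VHL*. These 9 had values in all libraries and were tested in both experiments, and *HIF3A* had no row in the tables and was not analysed here. RNA of LN229, a human glioblastoma (GBM) cell line, was sequenced in 8 groups of 2 libraries each, 16 libraries in all. In the first experiment, untreated cells under the ischemic condition, a medium low in glucose, glutamine and serum kept at low oxygen, were compared with untreated cells under the regular condition. In the second experiment, cells received the vehicle DMSO, VX745, an inhibitor of the kinase p38α, or MK25, an inhibitor of its substrate kinase MK2, under the regular and under the ischemic condition. The study's methods name 1 concentration of each inhibitor, higher for MK25 than for VX745, without tying it to these libraries, and how long the ischemic culture lasted for these libraries is not given in the sources used here. All groups come from 1 line, and the labels do not say whether the libraries of a group came from separate cultures, so p-values measure only the spread between these libraries.

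A HIF is a dimer of an oxygen-regulated alpha subunit (HIF1α from *HIF1A*, HIF2α from *EPAS1*) and a stable beta subunit (from *ARNT* or *ARNT2*). In the presence of oxygen, the prolyl hydroxylases encoded by the *EGLN* genes modify the alpha subunits, VHL then binds them and directs their degradation, and the asparaginyl hydroxylase encoded by *HIF1AN* blocks their contact with coactivators. This control acts on the protein, which RNA-seq does not measure. *EGLN1* and *EGLN3* are themselves known as HIF targets, which makes them feedback genes, and HIF2α has been studied in glioblastoma for its part in stem-like tumor cells.

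The region just before the start site is shown for the 3 genes with the largest rises under the ischemic condition and for *HIF1A*, to set them beside an alpha subunit that was not raised. Promoters came from the RefSeq table of GRCh38.p14, in which 8 of the 10 genes have an entry and *ARNT2* and *VHL* have none. The windows are the 250 bases before the annotated start, 5′ to 3′ on the strand of the gene, at chr2:46297157-46297406 (plus strand) for *EPAS1*, chr1:231422288-231422537 (minus strand) for *EGLN1*, chr14:33951075-33951324 (minus strand) for *EGLN3* and chr14:61695263-61695512 (plus strand, the first of 2 starts in the table) for *HIF1A*. Capitals mark the core of the HIF binding motif, searched on both strands as ACGTG and GCGTG.
EPAS1: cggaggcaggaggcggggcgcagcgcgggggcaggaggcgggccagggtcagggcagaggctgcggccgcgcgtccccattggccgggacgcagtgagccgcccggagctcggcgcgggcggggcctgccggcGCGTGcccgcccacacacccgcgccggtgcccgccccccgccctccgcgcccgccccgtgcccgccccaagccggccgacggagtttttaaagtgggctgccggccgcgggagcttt
EGLN1: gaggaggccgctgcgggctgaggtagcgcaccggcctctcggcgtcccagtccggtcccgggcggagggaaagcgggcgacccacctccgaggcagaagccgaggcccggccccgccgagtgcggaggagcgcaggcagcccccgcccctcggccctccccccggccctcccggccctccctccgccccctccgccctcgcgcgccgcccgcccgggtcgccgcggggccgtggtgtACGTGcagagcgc
EGLN3: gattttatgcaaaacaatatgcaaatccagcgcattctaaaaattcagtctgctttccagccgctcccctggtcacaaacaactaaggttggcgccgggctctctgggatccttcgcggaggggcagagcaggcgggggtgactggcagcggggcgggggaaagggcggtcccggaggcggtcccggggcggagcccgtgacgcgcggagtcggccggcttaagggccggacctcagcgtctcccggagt
HIF1A: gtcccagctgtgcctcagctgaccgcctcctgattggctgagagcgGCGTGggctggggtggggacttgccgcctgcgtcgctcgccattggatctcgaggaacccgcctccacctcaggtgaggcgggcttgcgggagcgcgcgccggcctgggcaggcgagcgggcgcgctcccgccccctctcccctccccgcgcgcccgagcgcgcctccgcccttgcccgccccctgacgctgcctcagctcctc
The window of *EGLN1* holds 1 ACGTG that begins 13 bases before the start, and those of *EPAS1* and *HIF1A* hold 1 GCGTG each, at 117 and 204 bases before the start. Neither form occurs in the window of *EGLN3*, nor in those of *ARNT* and *HIF1AN*. *EGLN2* has 1 CACGTG, which reads ACGTG on each strand, and *HIF3A* has 3 copies of GCGTG. Of 35116 promoters of this length, 18.51% hold ACGTG, 32.22% hold GCGTG and 43.21% hold either, so such a match is common and is given only as a description.

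Between 20122017 and 37562668 reads per library lay on the listed genes, as recovered from the deposited values, and a gene with 3 reads has a log2 value between −2.71 and −2.16. The number of reads behind a value was 8923 to 16651 for *HIF1A*, 95 to 1986 for *EPAS1* and 1856 to 13128 for *EGLN1*, but 24 to 158 for *EGLN3* and 18 to 64 for *EGLN2*. Of 7 glioma markers, *VIM*, *CD44* and *NES* had log2 values of at least 8.40 in all libraries, *S100B* had 4.54 to 5.47, *SOX2* 3.13 to 6.48, *OLIG2* 0.94 to 3.09 and *GFAP* at most 1.06. Under the ischemic condition 1 of the 7 was higher and 5 lower in untreated cells, where 35.2% of all genes were higher and 35.2% lower. In DMSO cells 2 were higher and 4 lower, where 34.4% and 35.2% of all genes were. Of the markers, 1 was higher and 3 were lower by at least 2-fold in untreated cells (11.3% and 9.1% of all genes). Their log2 fold changes in untreated and DMSO cells were 1.38 and 1.27 for *VIM*, −1.36 and −1.06 for *NES*, −3.11 and −2.23 for *SOX2* and −1.68 and −0.81 for *OLIG2*. Of 6 markers of immune, endothelial and neuronal cells, 4 had no row (*PTPRC*, *PECAM1*, *CDH5* and *RBFOX3*). The summed CPM of the other two, *CD68* and *SYT1*, was 35.1 to 36.7 in regular and 114 to 121 in ischemic libraries of the first experiment, and 46.4 to 54.6 and 95.4 to 124 in the second. The part of either set of markers in the results was not tested. These are bulk values, so a higher level in each cell and a larger share of cells with a transcript cannot be told apart.

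Per length of transcript, *HIF1A* had the highest level of the 9 genes in all 8 groups, and *EGLN2* and *EGLN3* had the lowest levels in all groups but the untreated regular one, where *EPAS1* at −0.39 lay below *EGLN2* at −0.05. Levels between genes were compared as log2 normalized CPM per kilobase of the canonical GENCODE transcript, a scale that does not take account of other isoforms. The place of *EGLN2* is uncertain, since a readthrough transcript covers the whole gene and the counting of shared reads is not known. In regular DMSO cells *HIF1A* stood at 7.01 ± 0.08 (SD, n = 2) on this scale. *EGLN1* followed at 4.54 ± 0.15, then *VHL* at 3.95 ± 0.11, *ARNT* at 3.56 ± 0.08, *ARNT2* at 3.07 ± 0.02 and *HIF1AN* at 2.60 ± 0.12 (SD, n = 2 each). *EPAS1* stood at 0.31 ± 0.07, *EGLN2* at −0.50 ± 0.72 and *EGLN3* at −1.25 ± 0.03 (SD, n = 2 each), and the last 3 were the only ones below 1 on this scale. In ischemic DMSO cells *EGLN1* at 6.15 ± 0.04 came close to *HIF1A* at 6.81 ± 0.01, and *EPAS1* at 2.75 ± 0.02 passed *HIF1AN* at 2.67 ± 0.03 (SD, n = 2 each).

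**Figure D1:**
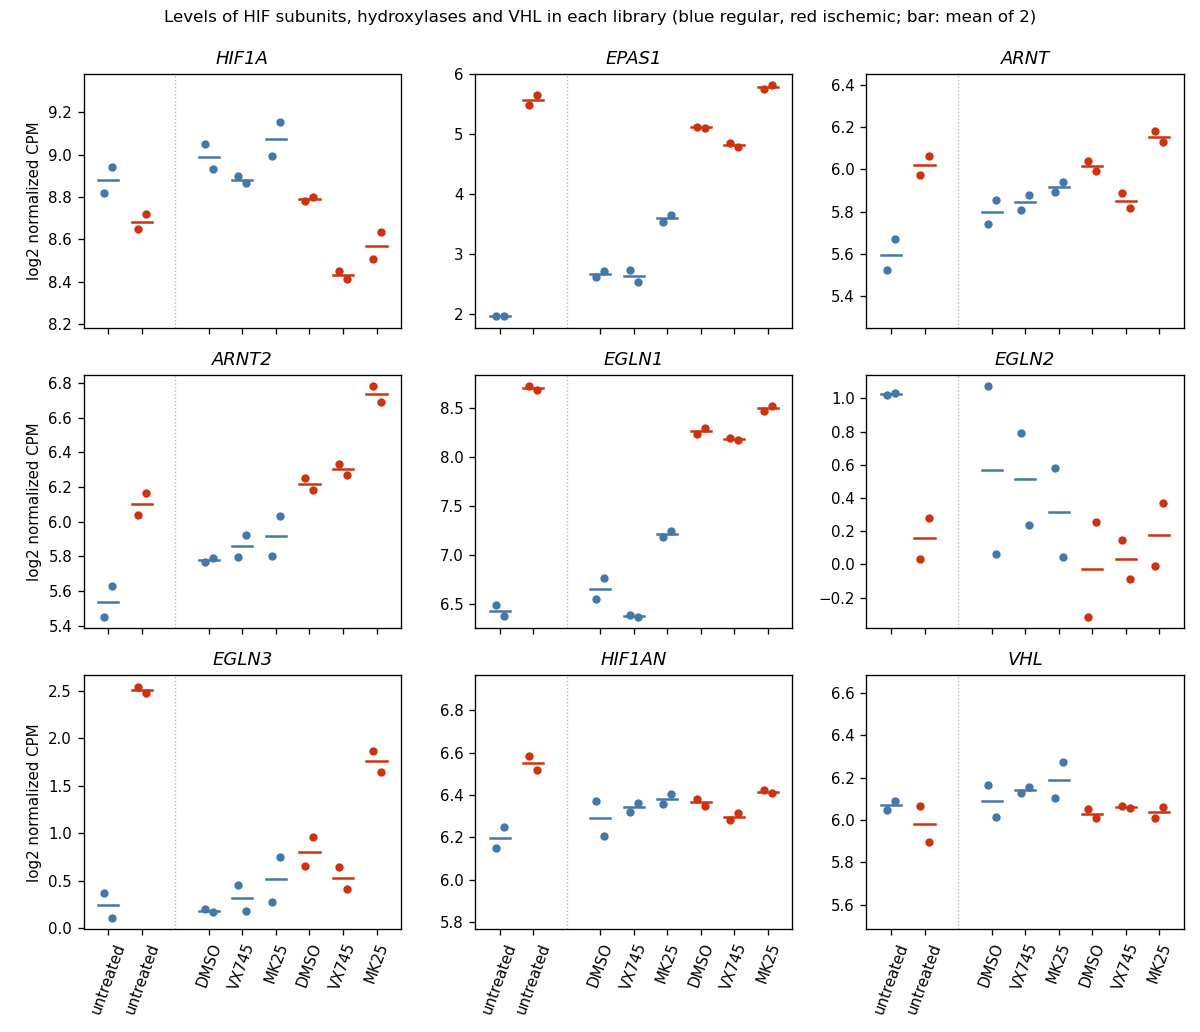
Level of each gene (vertical axis, log2 normalized CPM) in every library, with blue points for regular and red points for ischemic cells, bars at the mean of 2 libraries, and the first experiment left of the dotted line. *EPAS1* and *EGLN1* separate the cultures in all groups, *HIF1A* is lower in the ischemic libraries of each treatment, and *VHL* and *HIF1AN* stay within a narrow range.

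The alpha subunits moved in opposite directions under the ischemic condition, *EPAS1* up and *HIF1A* down by less. *EPAS1* (identifier 2034, GRCh38 chromosome 2, 46297407 to 46386697, 16 exons) had 5.49 and 5.65 log2 normalized CPM in the untreated ischemic libraries and 1.97 and 1.98 in the regular ones. It had 5.12 and 5.10 in the ischemic and 2.63 and 2.72 in the regular DMSO libraries. In both experiments the ischemic libraries lie far above the regular ones. The log2 fold change was 3.59 in untreated cells (with a standard error of 0.11 and an adjusted p = 6.36e-11 by limma), a 12.1-fold rise, and 2.44 in DMSO cells (with a standard error of 0.09 and an adjusted p = 1.62e-13), a 5.43-fold rise. Cells given an inhibitor under both conditions also showed the rise, by 2.18 with VX745 and 2.19 with MK25. The experiments were normalized separately, and the difference between their rises was not tested.

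*HIF1A* (identifier 3091, GRCh38 chromosome 14, 61695513 to 61748258, 15 exons) had 8.65 and 8.72 in the untreated ischemic libraries and 8.82 and 8.94 in the regular ones. In DMSO cells the values were 8.78 and 8.80 against 9.05 and 8.93. The groups do not overlap, but the distance between them is close to the spread within the regular groups. The log2 fold change was −0.20 in DMSO cells (with a standard error of 0.06 and an adjusted p = 0.00947 by limma) and of like size in untreated cells (−0.19, adjusted p = 0.0256). In untreated cells the limma call is lost without regular replicate 2 (adjusted p = 0.181), without ischemic replicate 1 (0.134) and without the variance trend (0.107). In DMSO cells it is lost without regular replicate 1 (adjusted p = 0.0941) or ischemic replicate 1 (0.0530). The change was −0.39 in untreated and −0.52 in DMSO cells with quantile normalization, which moved the median of all genes by −0.04 and −0.01. With voom on the recovered reads it was −0.37 and −0.42, under a scaling that moved that median by −0.17 and −0.22. With an inhibitor under both conditions the log2 fold change was −0.45 with VX745 (adjusted p = 6.17e-06) and −0.51 with MK25 (adjusted p = 1.67e-06). An antisense RNA, *HIF1A-AS1*, shares 311 bases with the span of *HIF1A* and lay between −0.64 and 0.75 in log2 normalized CPM. The kit used does not mark the strand, so reads of the shared stretch cannot be told apart.

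The excess of *HIF1A* over *EPAS1* mRNA, per kilobase, therefore narrowed under the ischemic condition. It was 7.29 ± 0.09 on the log2 scale in untreated regular cells, a ratio of 156, and 3.50 ± 0.07 in ischemic cells, a ratio of 11.3 (SD, n = 2 each). In DMSO cells it went from 6.70 ± 0.15 to 4.06 ± 0.03, and in MK25 cells from 5.86 ± 0.02 to 3.17 ± 0.04 (SD, n = 2 each). The smallest excess, a ratio of 9.01, was that of ischemic MK25 cells, so *HIF1A* remained the more abundant alpha subunit mRNA in all groups.

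**Figure D2:**
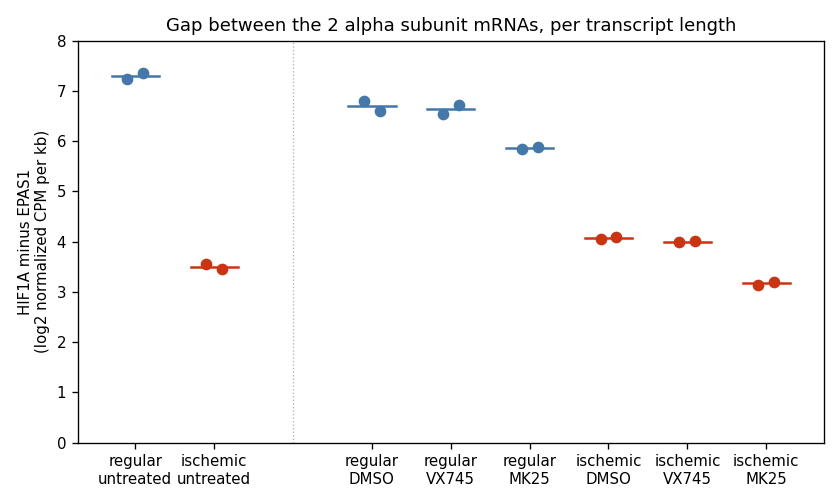
Difference between *HIF1A* and *EPAS1* (vertical axis, log2 normalized CPM per kilobase of transcript) in each library, blue for regular and red for ischemic cells, with bars at the mean of 2 libraries. The gap falls from 7.29 to 3.50 in untreated cells and is smallest in ischemic MK25 cells at 3.17.

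The beta subunit genes rose modestly. *ARNT* (identifier 405, chromosome 1, 150809713 to 150876599) had 5.97 and 6.06 in untreated ischemic and 5.52 and 5.67 in regular libraries, a log2 difference of 0.42 ± 0.08 (standard error, with adjusted p = 0.000492 by limma). *ARNT2*, a paralog best known from the nervous system (identifier 9915, chromosome 15, 80404382 to 80597933), had 6.04 and 6.16 against 5.45 and 5.63, a log2 difference of 0.56 ± 0.08 (standard error, with adjusted p = 7.24e-05). Neither gene had overlapping groups in this comparison. In DMSO cells the changes were 0.22 for *ARNT* (adjusted p = 0.00465) and 0.44 for *ARNT2* (adjusted p = 4.15e-05). The rise of *ARNT* in DMSO cells rests on the scaling, since its log2 fold change was −0.0029 with voom on the recovered reads, and it is lost without regular DMSO replicate 1 (adjusted p = 0.0538 by limma). With voom the rise of *ARNT2* in DMSO cells was 0.22 (adjusted p = 0.0149) and that of *ARNT* in untreated cells 0.25 (adjusted p = 0.0122). In VX745 cells the ischemic change was 0.01 for *ARNT* (95% interval −0.12 to 0.14) and 0.44 for *ARNT2*, and in MK25 cells it was 0.24 and 0.82.

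Of the hydroxylase genes, the feedback genes *EGLN1* and *EGLN3* rose under the ischemic condition. *EGLN1*, which encodes the main prolyl hydroxylase of HIF1α (identifier 54583, chromosome 1, 231363756 to 231422287, 5 exons), had 8.73 and 8.69 in untreated ischemic and 6.48 and 6.38 in regular libraries. The DMSO libraries had 8.24 and 8.30 against 6.54 and 6.76. All ischemic libraries lie above all regular libraries. The log2 fold change was 2.28 in untreated cells (with a standard error of 0.07 and an adjusted p = 4.25e-11 by limma) and 1.62 in DMSO cells (with a standard error of 0.06 and an adjusted p = 3.30e-13), and it was 1.81 with VX745 and 1.29 with MK25.

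*EGLN3* (identifier 112399, chromosome 14, 33924227 to 33951074, 5 exons) had 2.54 and 2.48 in untreated ischemic libraries, which are 158 and 116 reads, and 0.38 and 0.11 in regular libraries, 30 and 28 reads. In DMSO cells it had 0.66 and 0.96 in ischemic and 0.20 and 0.17 in regular libraries, at 26 to 55 reads. The untreated groups stand well apart, and the DMSO groups only by a little more than the spread of the ischemic libraries. The log2 fold change was 2.26 in untreated cells (with a standard error of 0.21 and an adjusted p = 9.40e-07 by limma) and 0.62 in DMSO cells (with a standard error of 0.25 and an adjusted p = 0.0350). The call in DMSO cells is lost without ischemic replicate 2 (adjusted p = 0.200), without regular replicate 1 (0.0694) or without regular replicate 2 (0.0853), with only the groups compared (0.0759), and with voom on the recovered reads (0.43, adjusted p = 0.158). In VX745 cells the ischemic change of *EGLN3* was 0.21 (95% interval −0.32 to 0.73), and in MK25 cells it was 1.24 (adjusted p = 0.000294).

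*EGLN1* and *EGLN3* rose by nearly equal amounts in untreated cells, and the excess of *EGLN1* per kilobase was 5.50 ± 0.11 on the log2 scale in regular and 5.52 ± 0.02 in ischemic cells (SD, n = 2 each). In DMSO cells the excess went from 5.79 ± 0.18 to 6.78 ± 0.17 (SD, n = 2 each). Relative to *HIF1AN*, *EGLN1* went from a ratio of 3.50 to 13.3 in untreated and from 3.83 to 11.1 in DMSO cells.

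The third prolyl hydroxylase gene, *EGLN2* (identifier 112398, chromosome 19, 40799191 to 40808434), had 0.803 to 2.11 CPM over all libraries. It had 0.03 and 0.28 in untreated ischemic and 1.02 and 1.03 in regular libraries, a log2 difference of −0.87 ± 0.26 (standard error, with adjusted p = 0.00896 by limma), and the call is lost when either regular library is left out (adjusted p = 0.0630 and 0.0648). In DMSO cells the change was −0.60 (95% interval −1.35 to 0.16), with overlapping groups, and it rests on single libraries, being −0.09 without regular DMSO replicate 1 (adjusted p = 0.848 by limma), −0.31 without ischemic DMSO replicate 1 (0.541) and −1.10 without regular DMSO replicate 2 (0.0175). With voom it was −0.88 (adjusted p = 0.0444). A readthrough transcript of the neighbouring gene, *RAB4B-EGLN2*, covers all 9244 bases of *EGLN2* and has no row of its own, and how reads shared by the pair were counted is not given in the sources used here, so the level of *EGLN2* is uncertain.

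The asparaginyl hydroxylase gene *HIF1AN* (identifier 55662, chromosome 10, 100535943 to 100559998) and *VHL* (identifier 7428, chromosome 3, 10141778 to 10153667) moved little. *HIF1AN* had 6.58 and 6.52 in untreated ischemic and 6.15 and 6.25 in regular libraries, a log2 difference of 0.35 ± 0.07 (standard error, with adjusted p = 0.000823 by limma), which was 0.18 with voom (adjusted p = 0.0385). In DMSO cells its groups overlap, and the change was 0.08 (95% interval −0.05 to 0.20), but without regular DMSO replicate 1 it was 0.16 (adjusted p = 0.0386 by limma) and with voom on the recovered reads −0.15 (adjusted p = 0.0267). *VHL* had 6.07 and 5.89 in untreated ischemic and 6.05 and 6.09 in regular libraries, groups that overlap, and its change was −0.09 (95% interval −0.26 to 0.08). In DMSO cells the change of *VHL* was −0.06 (95% interval −0.20 to 0.08). With voom on the recovered reads *VHL* passed, with −0.26 in untreated and −0.29 in DMSO cells, under a scaling that moved the median of all genes by −0.17 and −0.22.

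In all, 8 of the 9 genes passed the test in untreated cells, 6 higher and 2 lower, where 70.4% of 13559 genes did, so that a call alone does not set a gene apart. Of all genes, 35.2% were higher and 35.2% lower. At a fold change of at least 2, *EPAS1*, *EGLN1* and *EGLN3* were higher, where 11.3% of all genes were higher. In DMSO cells 6 of 9 passed (69.6% of 14024 genes, 34.4% higher and 35.2% lower), and *EPAS1* and *EGLN1* were higher by at least 2-fold (9.03% of all genes). In cells with VX745 4 of 9 passed (66.6% of all genes) and in cells with MK25 6 of 9 (67.2%), with *EPAS1* and *EGLN1* higher by at least 2-fold in each (9.28% and 8.56% of all genes) and *EGLN3* in addition with MK25.

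**Figure D3:**
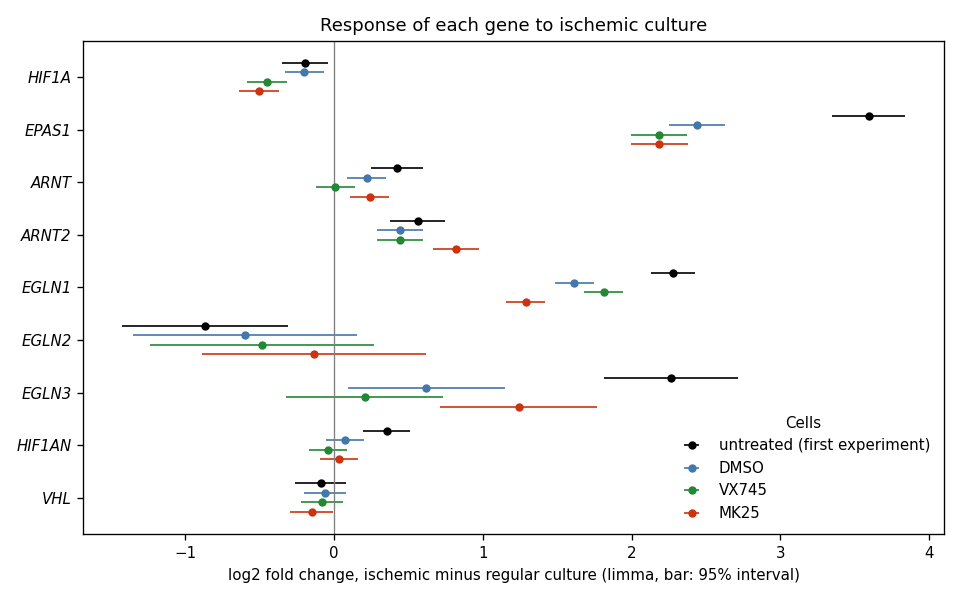
Log2 fold change of ischemic over regular cells (horizontal axis) for each gene, in untreated cells of the first experiment and in DMSO, VX745 and MK25 cells of the second, with bars for the 95% interval from limma. *EPAS1* and *EGLN1* lie above 1 in every comparison, *HIF1A* lies below 0, and the wide bars of *EGLN2* and *EGLN3* go with their low read counts.

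To examine the effect of p38α inhibition on these genes, VX745 was compared with DMSO within each culture. The same DMSO libraries serve as controls for both inhibitors. In ischemic cells VX745 lowered both alpha subunit mRNAs, and none of the other 7 genes passed the test. *HIF1A* had 8.45 and 8.41 with VX745 against 8.78 and 8.80 with DMSO, a log2 difference of −0.36 ± 0.06 (standard error, with adjusted p = 0.000476 by limma), which was −0.20 with quantile normalization (0.0390). *EPAS1* had 4.85 and 4.79 against 5.12 and 5.10, a log2 difference of −0.29 ± 0.09 (standard error, with adjusted p = 0.0219), a call that is lost with any of the 4 libraries left out (adjusted p between 0.0750 and 0.138) and with voom (−0.17, adjusted p = 0.0694). The groups of both genes are apart, and neither change reached 1.5-fold, as 0.906% of all genes did downward. These are 2 of 9 genes, where 28.9% of all genes passed and 14.9% were lower. *ARNT* came next with −0.17 (adjusted p = 0.0535 by limma), and it passed with only the groups compared (0.0243) and with libraries centred on their median (0.0380). For *EGLN1* the change was −0.08 (95% interval −0.21 to 0.05) and for *EGLN3* −0.28 (95% interval −0.81 to 0.25).

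In regular cells VX745 changed none of the 9 genes at an adjusted p under 0.05 with limma, where 0.335% of all genes passed. *EGLN1* alone had an unadjusted p under 0.05, with 6.38 and 6.36 with VX745 against 6.54 and 6.76 with DMSO, a log2 fold change of −0.28 (standard error 0.06, unadjusted p = 0.000363, adjusted p = 0.0679). Its groups do not overlap, and without regular DMSO replicate 1 the change was −0.39 (adjusted p = 0.00413). For *HIF1A* the difference was −0.11 (95% interval −0.24 to 0.02) and for *EPAS1* −0.04 (95% interval −0.23 to 0.15), and voom on the recovered reads called none of the 9 genes either.

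MK25 raised *EPAS1* and *EGLN1* in both cultures. In regular cells *EPAS1* had 3.53 and 3.66 with MK25 against 2.63 and 2.72 with DMSO, a log2 difference of 0.92 ± 0.09 (standard error, with adjusted p = 1.84e-06 by limma), a 1.90-fold rise. *EGLN1* had 7.18 and 7.25 against 6.54 and 6.76, a log2 difference of 0.56 ± 0.06 (standard error, with adjusted p = 1.05e-05). For both genes the MK25 libraries lie between the regular DMSO and the ischemic DMSO libraries. The other 7 genes did not pass, *EGLN3* with a change of 0.33 (95% interval −0.20 to 0.86) and *HIF1A* with 0.08 (95% interval −0.05 to 0.22). These are 2 of 9 genes, where 12.2% of all genes passed and 7% were higher, and *EPAS1* is the one past 1.5-fold, where 1.88% of all genes were higher by as much.

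In ischemic cells MK25 raised 4 of the 9 genes and lowered *HIF1A*, where 41.7% of all genes passed, 19.8% higher and 22% lower. *EPAS1* and *EGLN3* were at least 1.5-fold higher (7.02% of all genes). *EPAS1* had 5.75 and 5.82 with MK25 against 5.12 and 5.10 with DMSO, a log2 difference of 0.67 ± 0.09 (standard error, with adjusted p = 2.02e-05 by limma). *ARNT2* had 6.78 and 6.69 against 6.25 and 6.19, a log2 difference of 0.52 ± 0.07 (standard error, with adjusted p = 3.44e-05). *EGLN3* had 1.87 and 1.65 against 0.66 and 0.96, a log2 difference of 0.95 ± 0.25 (standard error, with adjusted p = 0.00579). In each of these genes both MK25 libraries lie above both DMSO libraries. *ARNT* did not pass (0.14, adjusted p = 0.0828 by limma), but it did with quantile normalization (0.19, adjusted p = 0.0270) and voom (0.27, adjusted p = 0.00173). *HIF1AN*, at 0.05 (adjusted p = 0.537 by limma), passed with voom (0.18, adjusted p = 0.0159). *EGLN1* changed by 0.23 (adjusted p = 0.00661) and *HIF1A* by −0.22 (adjusted p = 0.00956), small changes that do not hold throughout. Voom on the recovered reads moved the median of all genes by 0.13 in this comparison. The call of *HIF1A* is lost with quantile normalization, where its change was −0.02, with voom (−0.09, adjusted p = 0.237), and without ischemic MK25 replicate 1 (adjusted p = 0.127) or ischemic DMSO replicate 2 (0.0590). Without ischemic DMSO replicate 1 those of *EGLN1* (0.0626) and *EGLN3* (0.0597) are lost, as are that of *EGLN3* without ischemic MK25 replicate 1 (0.0639) and that of *EGLN1* without ischemic MK25 replicate 2 (0.0532), but the change of *EGLN1* was 0.39 with quantile normalization and 0.36 with voom.

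**Figure D4:**
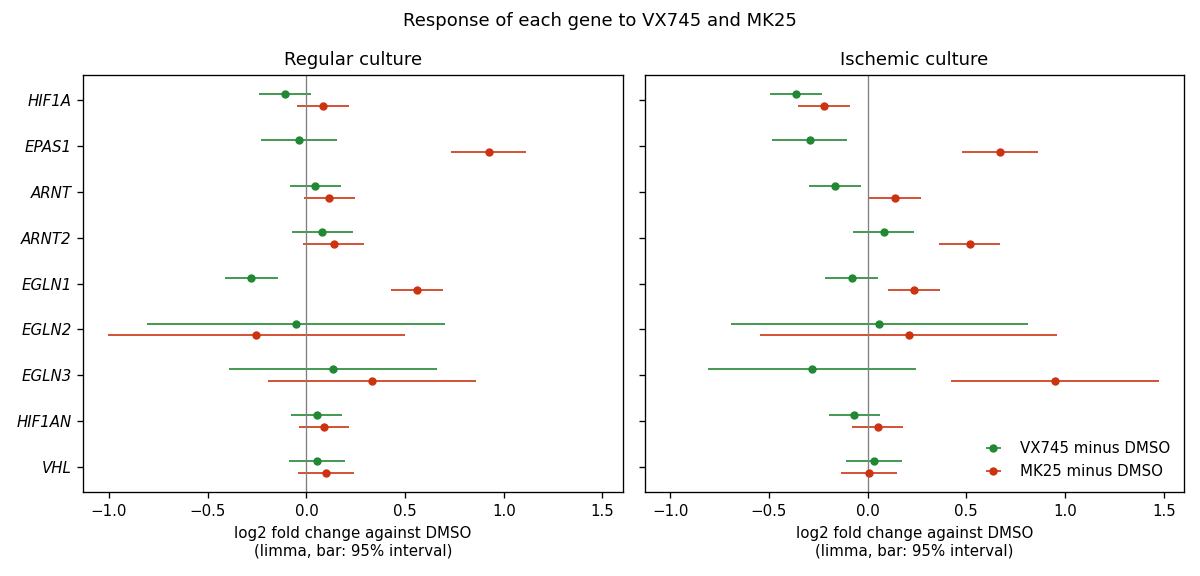
Log2 fold change against DMSO (horizontal axis) of each gene with VX745 (green) and MK25 (red), in regular (left) and ischemic cells (right), with bars for the 95% interval from limma. *EPAS1* rises with MK25 in both cultures and *HIF1A* lies below 0 with both inhibitors in ischemic cells.

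Set against each other, the inhibitors differed in *EPAS1* in both cultures. MK25 libraries exceeded VX745 libraries by 0.96 in regular cells (with a standard error of 0.09 and an adjusted p = 1.24e-06 by limma) and by 0.96 in ischemic cells (with a standard error of 0.09 and an adjusted p = 6.80e-07). In regular cells *EGLN1* was also higher with MK25, by 0.84 (adjusted p = 5.24e-08), and these are the 2 of 9 genes that passed, where 5.39% of all genes did and 3.96% were higher. In ischemic cells 5 of 9 genes were higher with MK25, where 18.4% of all genes passed and 8.22% were higher. *EPAS1* and *EGLN3* exceeded 1.5-fold (1.75% of all genes), with *EGLN3* at 1.23 (adjusted p = 0.00196). The others were *ARNT2* (0.43, adjusted p = 0.00040), *EGLN1* (0.32, adjusted p = 0.00165) and *ARNT* (0.30, adjusted p = 0.00201). The inhibitors act on different kinases, and the concentrations the methods name are not equal.

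Whether an inhibitor acts differently in ischemic and regular cells was tested as an interaction. For MK25, 3 of 9 genes passed, where 24.4% of all genes did. The effect in ischemic minus that in regular cells was −0.31 for *HIF1A* (with a standard error of 0.09 and an adjusted p = 0.0189 by limma), 0.38 for *ARNT2* (with a standard error of 0.10 and an adjusted p = 0.0135) and −0.33 for *EGLN1* (with a standard error of 0.09 and an adjusted p = 0.0125). None of these 3 passed without the variance trend (adjusted p from 0.0613 to 0.0761 by limma), and *HIF1A* and *EGLN1* did not pass with quantile normalization (−0.08 and −0.20) or voom (−0.17 and −0.20). For *EPAS1* the same difference of effects was −0.25 (95% interval −0.52 to 0.02). For VX745 none of 9 genes passed, where 11.8% of all genes did, and 3 had an unadjusted p under 0.05, *HIF1A* with −0.25, *ARNT* with −0.21 and *EGLN1* with 0.20. Voom on the recovered reads called *EGLN1* for VX745, and limma without regular DMSO replicate 1 called *HIF1A* (−0.31, adjusted p = 0.0376) and *EGLN1* (0.30, adjusted p = 0.0177).

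Genes around the pathway were counted from 5 lists of 51 genes, which were chosen with earlier results of these data known. The partners of VHL in its ubiquitin ligase (*ELOB*, *ELOC*, *CUL2* and *RBX1*) were lower in untreated ischemic cells in 4 of 4 cases, with a median log2 fold change of −0.39 where that of all genes was −0.01, and 35.2% of all genes were lower. In DMSO cells 3 of 4 were lower, where 35.2% of all genes were, with *CUL2* at −0.45 (adjusted p = 1.78e-05 from limma). *VHL* itself did not pass with limma in either comparison.

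Of 10 genes that act on HIF stability or activity, 6 were higher and 2 lower in untreated and 6 higher and 3 lower in DMSO cells, where 35.2% and 34.4% of all genes were higher. *SIAH2*, a ubiquitin ligase for prolyl hydroxylases, rose by 1.15 in untreated and 0.90 in DMSO cells. *CITED2*, which competes with HIF alpha subunits for coactivators, rose by 0.82 and 1.13. The chaperone gene *HSP90AA1* fell, with log2 fold changes of −1.69 and −0.65, and *HSP90AB1* with −0.89 and −0.28.

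Of 9 further genes of the bHLH-PAS family, which includes partners of ARNT, 8 had values. In untreated cells 3 were higher and 1 lower, where 35.2% of all genes were higher and 35.2% lower. In DMSO cells 2 were higher and 2 lower, where 34.4% and 35.2% of all genes were. *NPAS2* rose by 0.92 and 0.88 and *AHR*, the dioxin receptor, by 0.52 and 0.33. *AHRR*, the repressor of *AHR*, fell, with changes of −0.33 and −0.94. Of 4 other dioxygenases that use oxygen, 2 were higher and 1 lower in each experiment, a share called that is near that of all genes (70.4% and 69.6%). The histone demethylase genes *KDM5A* (0.73 and 0.56) and *KDM6A* (0.88 and 0.59) rose and the thiol dioxygenase gene *ADO* fell (−0.77 and −0.97).

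Most established HIF targets were higher under the ischemic condition. Of 24 such genes, 23 were higher in untreated ischemic cells, where 35.2% of all genes were, and 22 of them at least 2-fold, where 11.3% of all genes were, with a median log2 fold change of 4.21. In DMSO cells 23 were higher, where 34.4% of all genes were, and *LOX* was lower. The median there was 3.61, and the rises were led by *CA9* (7.67), *ANGPTL4* (7.49) and *NDRG1* (6.35). *LOX* had a change of −1.12 in DMSO cells (adjusted p = 0.00863 from limma) at 13 to 39 reads, but 0.23 in untreated cells (adjusted p = 0.492). The median of all genes was −0.01 in both comparisons.

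With MK25 in regular cells, 22 of the 24 targets were higher and none was lower, where 7% of all genes were higher. As the list was chosen with earlier results of these data known, the contrast with all genes is only a description. Their median log2 fold change was 0.92, that of all genes was 0.00, and 18 of them were at least 1.5-fold higher (1.88% of all genes). *BNIP3*, a mitophagy receptor gene, had 7.09 and 6.99 with MK25 against 5.24 and 5.04 with DMSO, a change of 1.90 (with a standard error of 0.07 and an adjusted p = 5.86e-12 by limma). *PDK1*, which encodes a kinase that restrains pyruvate oxidation, had 5.33 and 5.34 against 3.62 and 3.34, a change of 1.86 (with a standard error of 0.08 and an adjusted p = 2.83e-11). In both genes the MK25 libraries lie well above the regular DMSO libraries and below the ischemic ones, which had 9.38 and 9.39 for *BNIP3* and 7.77 and 7.74 for *PDK1*. *CA9* had the largest change, 2.97, but its DMSO libraries held 7 and 28 reads.

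With VX745 in regular cells none of the 24 targets passed the test, where 0.335% of all genes did, and voom called 0. An unadjusted p under 0.05 was reached by 9 of them, but the share of all genes under that rule was not taken. Their median change was −0.00. In ischemic cells VX745 lowered 17 of 24 targets and raised none, with a median of −0.35, where 14.9% of all genes were lower. The count was 10 with quantile normalization, and 2 were lower by at least 1.5-fold, as 0.906% of all genes were. In ischemic cells MK25 raised 4 and lowered 2, with a median of −0.09, where 41.7% of all genes passed, and the count of 6 became 14 with only the groups compared. The effect of MK25 was lower in ischemic than in regular cells for 20 of 24 targets by the interaction test, where 13.9% of all genes were lower, and higher for none.

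**Figure D5:**
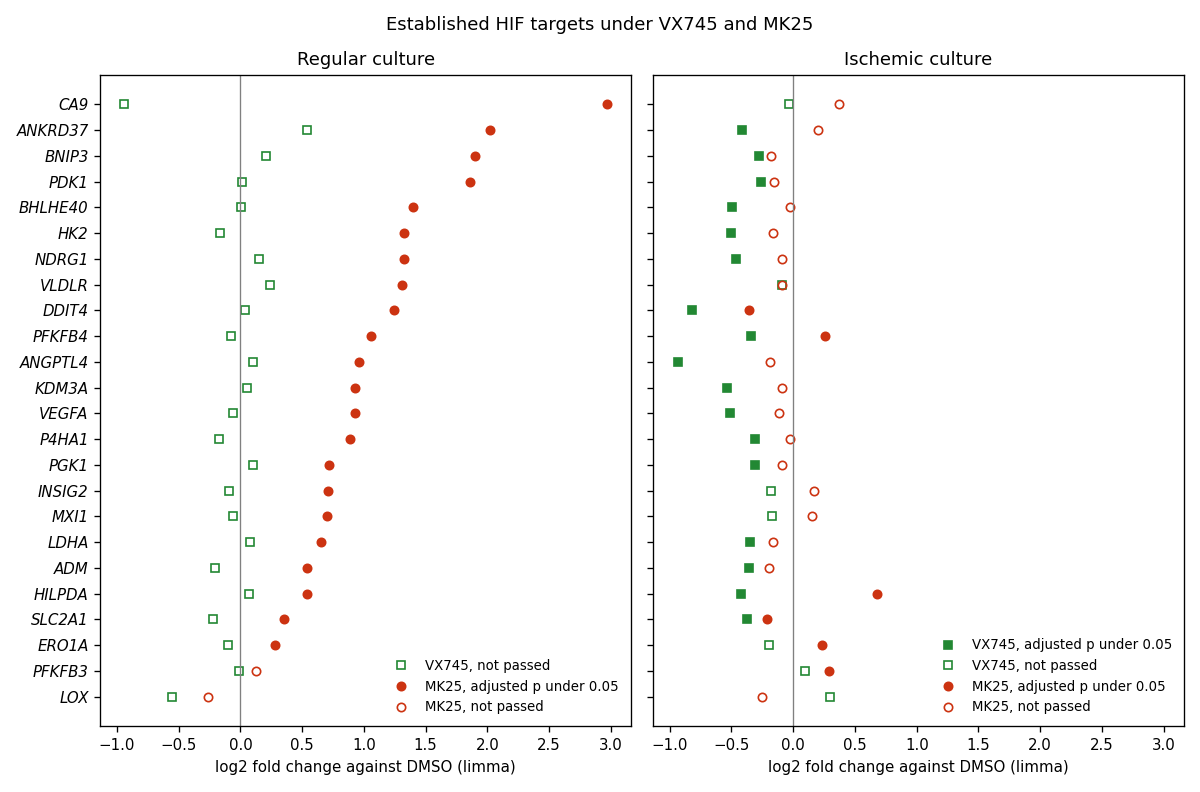
Log2 fold change against DMSO (horizontal axis) of 24 established HIF targets with VX745 (green squares) and MK25 (red circles), in regular (left) and ischemic cells (right), with filled symbols for an adjusted p under 0.05 from limma. With MK25 in regular cells 22 of 24 are filled and to the right of 0, and with VX745 in ischemic cells 17 of 24 are filled and to the left.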

How the data were processed

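RNA from LN229 cells was sequenced with SMART-Seq mRNA HT and Nextera XT libraries. Reads were trimmed and aligned by the authors with HISAT2 (GRCh38), their processing notes also name edgeR, and they deposited log2 normalized CPM, in 1 table of 13559 genes and 4 libraries and 1 of 14024 genes and 12 libraries, each normalized on its own. The counting program and all versions are not given in the sources used here.

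The deposited log2 values were used as they are. Once unlogged they rise in steps of whole reads with an offset of about 2 reads, and 100% of values came out whole, within 0.05 of a read or, for large counts, a relative 1e-06, which gave the depth per library. The offset understates changes at low counts. The libraries carry no molecular identifiers, and the floor of 3 reads covers counting error only.

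Two-sided p-values, log2 differences and their standard errors came from limma 3.58.1 in R 4.3.3, with 1 mean per group, all groups of an experiment in 1 fit and the prior variance following the mean level. P-values were adjusted by Benjamini-Hochberg over all genes of a comparison, in 12 comparisons. The threshold was 0.05 for the adjusted p. A fold threshold of 2 (ischemia) or 1.5 (inhibitor) is named where used. A value after ± is the SD over 2 libraries for a level and limma's standard error for a log2 difference, as named beside it. A count test was not run, since the deposited values are normalized.

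The members and the lists were chosen with earlier results of these data known. All 10 members are named, and of each list the genes with the largest rises and falls in DMSO cells and genes whose role is described, and *BNIP3* and *PDK1* were picked after their values were seen. Alternatives were each library left out, the replicate number as a block, no variance trend, libraries centred on their median, quantile normalization, a minimum mean of 1 CPM, only the groups compared, voom on the recovered reads scaled to plain totals, an unadjusted p, and the fold threshold. Positions are from RefSeq (GRCh38.p14), transcript lengths from GENCODE. Scripts ran in Python 3.11.15 with pandas 2.3.3, numpy 2.4.6 and matplotlib 3.10.9.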

Additional observations from a re-analysis of the deposited data

Results flagged for a closer look

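The effect of MK25 differed between ischemic and regular cells in 3 of the 9 genes, by the interaction term in limma. Of all genes, 24.4% passed that test, so a call alone does not set these 3 apart. For *HIF1A* the difference was −0.31 on the log2 scale (adjusted p = 0.0189), with effects of −0.22 in ischemic and 0.08 in regular cells. For *ARNT2* it was 0.38 (adjusted p = 0.0135), with effects of 0.52 and 0.14. For *EGLN1* it was −0.33 (adjusted p = 0.0125), with effects of 0.23 and 0.56, so both were rises. None of the 3 passed without the variance trend, where the adjusted p was 0.0761 for *HIF1A*, 0.0637 for *ARNT2* and 0.0613 for *EGLN1*. With quantile normalization the difference of *HIF1A* was −0.08 (adjusted p = 0.606) and that of *EGLN1* −0.20 (adjusted p = 0.119). The call of *HIF1A* was also lost without ischemic MK25 replicate 1 (adjusted p = 0.0974), ischemic DMSO replicate 2 (0.0586), regular MK25 replicate 2 (0.0785) or regular DMSO replicate 2 (0.0764). That of *ARNT2* was lost without ischemic MK25 replicate 1 (0.0607), ischemic DMSO replicate 2 (0.0529) or regular MK25 replicate 1 (0.0746), and that of *EGLN1* without ischemic DMSO replicate 2 (0.0528).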

How the results depend on the processing

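The rises of *EPAS1*, *EGLN1* and *ARNT2* under the ischemic condition, and of *EPAS1* with MK25, kept their direction and an adjusted p under 0.05 in limma under all alternatives that were refitted. With the fold threshold added, the number of the 9 genes called went to 3 in untreated, 2 in DMSO, 2 in VX745 and 3 in MK25 cells for ischemia, to 0 for VX745 and 2 for MK25 in ischemic cells, to 1 for MK25 in regular cells, and to 2 for MK25 against VX745 in ischemic cells. The share of all genes past each fold threshold is given with the comparison above. An unadjusted p called 1 gene for VX745 in regular cells and 3 for its interaction, and the share of all genes under that rule was not taken. The interaction of VX745 gave 1 gene with libraries centred on their median, 1 with quantile normalization, 1 with only the groups compared and 1 with voom. That of MK25 gave 0 without the variance trend, 1 with quantile normalization and 1 with voom. With each library left out in turn, 1 gene was called for VX745 in ischemic cells in all 4 cases, 3 to 4 for MK25 in ischemic cells, 0 to 1 for VX745 in regular cells, 0 to 2 for the VX745 interaction and 0 to 3 for the MK25 interaction. In such a fit the lone library is assumed to vary like the other groups. The share of all genes called under each refit was not taken, so these counts do not show whether the members differ from other genes. With 1 library left out, the change of *EPAS1* with VX745 in ischemic cells lay between −0.32 and −0.27, against −0.29 with all libraries. Voom scaled to plain totals moved the median of all genes by −0.22 for ischemia in DMSO cells and by 0.13 for MK25 in ischemic cells. Under it, the ischemic change in DMSO cells reversed for *ARNT* (−0.0029, adjusted p = 0.970) and for *HIF1AN* (−0.15, adjusted p = 0.0267). The replicate number as a block left all 12 counts unchanged, with 8 genes in untreated and 6 in DMSO cells for ischemia. The labels do not say that a number marks a shared culture or day. In the second experiment 4 of 15 pairs of groups had deviations that correlated above 0.1, so the numbers were not taken as pairing the libraries. The first experiment has a single pair of groups, with r = 0.271, too few to decide it. Low read counts limit *EGLN2* and *EGLN3*, whose values rest on 18 to 158 reads. The level of *EGLN2* is uncertain for a further reason, since how reads shared with *RAB4B-EGLN2* were counted is not given in the sources used here.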

Other observations

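The genes whose levels followed those of a member most closely over the 12 libraries of the second experiment were read off as a description, since these libraries fall into an ischemic and a regular cluster. For *EPAS1* they were *BIRC3* (Pearson r = 0.995), *OPTN* (0.994) and *LINC00963* (0.993). *BIRC3* encodes an inhibitor of apoptosis and *OPTN* an autophagy receptor. For *EGLN1* they were *POFUT4* (0.996), *CA9* (0.994) and *ARLN* (0.993), of which *CA9* is among the HIF targets. For *HIF1A* they were the zinc transporter gene *SLC39A9* (0.983), the DNA ligase gene *LIG3* (0.977) and *PMM2* (0.970), and for *ARNT2* they were *DCAF5* (0.988), *DEPDC5* (0.985) and *VPS11* (0.983). *EGLN3* was most like *IGFBP5* (0.968), *HEY1* (0.953) and *TMEM51* (0.949), and *TMEM51* was also among the 3 genes most like *ARNT* (0.942). The search covered 10053 genes whose log2 values averaged 3 or more.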
